A study of Mus musculus with 72 samples.

Results

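The subject is a set of 58 array probes, of 22504 whose rows in the deposited table follow its header, that stood higher after cecal ligation and puncture (CLP) in 5 mouse organs: heart, kidney, liver, lung and spleen. Members were selected on the difference between CLP and sham arrays: a probe was kept where the median of the CLP arrays exceeded the median of the sham arrays by 0.8 log2 units or more in all 5 organs, where the CLP median lay above 7 in all of them, and where no organ's sham median was 3 units or more above those of the other organs. Another 6 probes, listed by name in the rule, were left out, and 2 of these met the rest of it. The CLP and sham values thus chose the members, so their CLP-minus-sham differences are given as a description with no test. Of the 58 probes, 55 carry 1 gene symbol and they name 52 genes, since Slc10a6, Ctps and Csnk1d have 2 probes each. The other 3 probes, ILMN_2730054, ILMN_2595732 and ILMN_1246770, have no symbol in the annotation used.

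RNA was measured on Illumina bead arrays in 3 arms of female C57Bl/6J mice, in organs taken 28 hours after the operation. Sham mice had the operation without the gut injury and then saline, CLP mice had the cecum tied off and punctured, so that gut bacteria leak into the abdomen, and then saline, and MSC mice had CLP followed by cultured mesenchymal stem cells. The infusion, of 250000 cells or of saline, was given in 100 µL through a cannula 6 hours after surgery, and the cells came from male C57Bl/6J mice at passages 8 to 11. There were 72 arrays: each arm had 4 spleens and, from 15 mice in all that the labels number across these 4 organs, 5 each of liver, lung, kidney and heart. The series' own text gives 4 animals per group, and asks which molecular changes accompany the milder inflammation of treated mice. All values are deposited log2 intensities, on which 1 unit is a 2-fold difference, and nothing in the labels says how many litters or surgery days the mice came from.

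Bacteria and damaged tissue are sensed by Toll-like and cytokine receptors, many of which signal through the adaptor MYD88 to the transcription factor NF-kB, whose own inhibitor genes are among its targets. Cytokines of the interleukin-6 family act through JAK kinases on STAT3, which in turn raises its feedback inhibitor SOCS3, and glucocorticoids released under stress raise a further set of genes. Together these signals drive the acute phase response, the production of chemokines that draw neutrophils into tissue, and a shift of fuel use from glucose to fat.

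Several facts about the arrays bear on every result. The 12 spleen arrays and the 60 others had been normalized apart, so levels are compared only among liver, lung, kidney and heart, and spleen differences only within the spleen. The exception is the rule's limit on sham medians, which sets the spleen beside the other organs. The deposit holds a second table in which 7 of the 12 spleen arrays carry another label, and in 2 cases another arm: the values called sham s2 in the main table are called MSC8 there, and those called MSC8 are called sham s3. Spleen results are therefore also given without s2 and MSC8. The defining markers of liver, lung, kidney and heart were highest in the organ so labelled, at 10.09 to 12.85 on average over a marker list, on the scale of the second table, which differs from the main one by a constant per probe in these organs. Liver markers were also raised in 1 sham kidney, 78S, at 9.13 against 5.33 to 6.33 in the other sham kidneys, in MSC heart 61M, at 6.67 against 3.99 to 5.02 in all other hearts, and in MSC lung 16M, at 5.73 against 3.55 to 4.14 in all other lungs. Lung markers stood at 6.39 in CLP heart 37C against 4.12 to 5.48 in the other hearts, and lymphocyte markers were raised in hearts 78S, 107C, 61M and 37C, at 8.10 to 9.45 against 7.08 to 7.83 in the others.

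The size of the difference varied by organ. In the liver the 58 differences ran from 0.91 to 4.93 with a median of 1.93, and in the kidney from 0.80 to 4.65 with a median of 1.98. Spleen differences had a median of 1.77 and the widest span, 0.81 to 6.48, and heart differences a median of 1.66 and a span of 0.84 to 4.87. The lung had the smallest median, 1.29, although its largest difference was 5.81. Among the 5 organs the lung held the smallest difference for 25 of the 58 probes and the largest for 2, whereas the liver held the largest for 19 and the kidney for 17. All CLP arrays exceeded all sham arrays for 47 members in the spleen, 42 in the liver, 38 each in lung and kidney and 33 in the heart. Over all probes tested this held for 11.8% (spleen), 12% (liver), 8.27% (lung), 7.49% (kidney) and 4.34% (heart), and nothing is read from the comparison, since the rule used these arrays. Levels in the 4 organs normalised together did not draw closer over the set as a whole: the range between the organs' medians was smaller in CLP than in sham mice for 30 of 58 members, with a median range of 1.49 in sham and 1.44 in CLP. It narrowed for Fpr2, Socs3, Stat3, Cdkn1a and Cebpb, as given with each below, and widened for Ngp (1.14 to 4.70), Arrdc4 (0.95 to 3.22), Srxn1 (1.26 to 2.92) and Pdk4 (4.20 to 4.49). For 19 members the arms were apart in all 5 organs, and for Kcne4 and Erdr1 in none. The map of differences by probe and organ shows these spans.

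**Figure D1:**
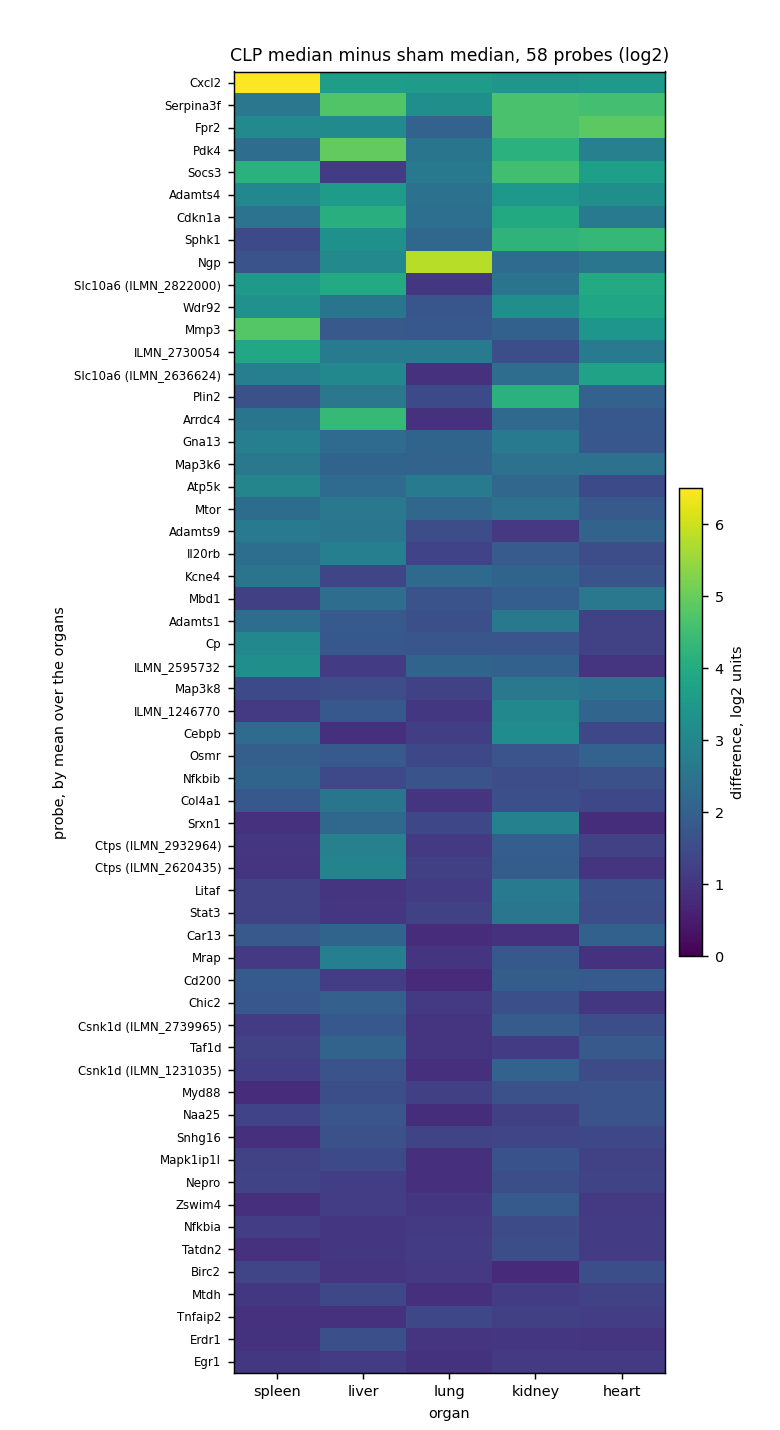
CLP median minus sham median in log2 units (colour) for the 58 probes (rows, ordered by their mean over the organs) in 5 organs (columns). Cxcl2 in the spleen, at 6.48, is the brightest cell, and the lung column is the darkest, with a median of 1.29.

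Promoters of 3 genes are shown here because they stand for the signals above: Cxcl2 for chemokines, Socs3 for the STAT branch and Nfkbia for the NF-kB branch. Each window runs from 250 bases before to 50 bases after the annotated start of the gene, from RefSeq on GRCm38.p6, read 5′ to 3′ on the gene's strand, with matches to TTCNNNGAA (the STAT palindrome) or to a kB-type motif (3 G, then 3 bases of any kind, a T, 1 base of any kind and CC), searched on both strands, in capitals. The Cxcl2 window lies at chr5:90903649-90903948 on the plus strand, that of Socs3 at chr11:117969317-117969616 on the minus strand and that of Nfkbia at chr12:55492598-55492897 on the minus strand.
Cxcl2: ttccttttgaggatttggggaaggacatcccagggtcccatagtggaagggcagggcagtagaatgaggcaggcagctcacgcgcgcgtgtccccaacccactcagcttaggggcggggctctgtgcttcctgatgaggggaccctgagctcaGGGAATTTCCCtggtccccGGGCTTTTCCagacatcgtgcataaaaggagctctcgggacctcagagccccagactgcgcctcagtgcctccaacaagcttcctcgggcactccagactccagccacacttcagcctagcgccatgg
Socs3: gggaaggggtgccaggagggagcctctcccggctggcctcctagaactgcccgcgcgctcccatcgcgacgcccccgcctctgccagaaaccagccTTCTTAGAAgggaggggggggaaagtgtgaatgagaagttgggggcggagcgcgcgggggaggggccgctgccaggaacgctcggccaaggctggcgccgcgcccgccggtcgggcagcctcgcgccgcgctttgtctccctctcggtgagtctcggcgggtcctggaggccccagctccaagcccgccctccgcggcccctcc
Nfkbia: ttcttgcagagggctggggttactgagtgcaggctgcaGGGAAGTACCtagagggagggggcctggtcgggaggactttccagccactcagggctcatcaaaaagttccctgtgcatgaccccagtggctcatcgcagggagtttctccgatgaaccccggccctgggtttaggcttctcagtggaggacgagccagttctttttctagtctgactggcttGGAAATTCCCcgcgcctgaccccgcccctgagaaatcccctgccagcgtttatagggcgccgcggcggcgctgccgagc
In Cxcl2 a pair of overlapping kB matches begins at -97 and -96 from the start and a further one at -78. Socs3 has 1 STAT palindrome, at -154, and Nfkbia has kB matches at -212 and -29. RefSeq promoter windows were found for 41 of the 52 genes, 50 windows in all. The STAT palindrome occurs in 8 of these 50 windows (16.0%) and in 8.30% of all 32851 windows in the table. The kB motif occurs in 11 windows (22.0%) against 17.4% of all, the C/EBP-type motif TTGCNNAA in 6 (12%) against 10.8%, the AP-1 motif TGANTCA in 6 (12%) against 7.81% and the glucocorticoid-type motif ACANNNTGT in 4 (8.0%) against 6.85%. The metal response motif TGCNCNC, the last of those searched, occurs in 31 windows (62.0%) against 51.0%. Several windows belong to 1 gene, as for Sphk1 and Serpina3f, so windows are not independent, and a match is a run of letters and not a measured binding site.

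Among secreted proteins, Cxcl2, a chemokine that attracts neutrophils, had the largest mean difference over the organs, 4.12; the values of each arm are listed in ascending order here and for the genes that follow. Spleen values of Cxcl2 were 4.76, 4.90, 4.91 and 4.99 in sham, 6.64, 10.34, 12.43 and 13.32 in CLP and 6.13, 6.16, 10.23 and 13.15 in MSC mice. Liver values of Cxcl2 were 4.44, 5.13, 5.20, 5.23 and 5.48 in sham, 8.12, 8.76, 8.84, 9.57 and 10.002 in CLP and 5.98, 6.96, 6.99, 7.69 and 7.78 in MSC mice. All 4 CLP spleens lay above the sham spleens, but the CLP spleen labelled B and MSC spleens MSC4 and MSC7 stood far below their fellows, whereas the 3 arms of the liver did not overlap at all. Lung values of Cxcl2 were 5.21, 5.62, 5.86, 6.54 and 6.91 in sham, 6.16, 8.0, 9.45, 9.76 and 9.99 in CLP and 7.40, 7.52, 7.80, 8.21 and 8.86 in MSC mice. Kidney values of Cxcl2 were 4.91, 5.17, 5.25, 5.26 and 5.33 in sham, 5.48, 7.46, 8.63, 9.32 and 10.36 in CLP and 6.04, 6.18, 6.45, 7.17 and 7.27 in MSC mice. Heart values of Cxcl2 were 5.10, 5.20, 5.26, 5.92 and 6.09 in sham, 6.44, 8.74, 8.78, 8.83 and 9.61 in CLP and 6.22, 7.46, 7.65, 8.83 and 9.33 in MSC mice. In each of these the lowest CLP value belonged to mouse 107C, and in the lung it fell among the sham values. A second probe of Cxcl2, outside the set, differed by 4.49 in liver, 3.56 in lung, 3.51 in kidney and 4.04 in heart.

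Serpina3f, a member of the mouse family of serine protease inhibitors related to human antichymotrypsin, came next with a mean difference of 3.95. Spleen values of Serpina3f were 9.11, 9.33, 9.75 and 9.78 in sham, 10.48, 11.27, 12.98 and 13.42 in CLP and 10.47, 10.51, 12.66 and 13.99 in MSC mice. Liver values of Serpina3f were 7.56, 7.64, 7.97, 8.17 and 8.41 in sham, 9.18, 12.54, 12.70, 13.52 and 13.58 in CLP and 8.39, 8.86, 9.59, 9.69 and 11.94 in MSC mice. Lung values of Serpina3f were 6.71, 6.80, 7.17, 7.33 and 7.35 in sham, 8.30, 9.33, 10.41, 11.19 and 11.48 in CLP and 8.80, 9.01, 10.09, 10.43 and 10.63 in MSC mice. Lung values of both injured arms were above every sham lung and overlapped each other, whereas in the liver 4 of the 5 CLP values exceeded every MSC value. Kidney values of Serpina3f were 5.22, 5.33, 5.44, 5.46 and 5.86 in sham, 5.87, 8.12, 10.07, 10.54 and 10.62 in CLP and 5.84, 6.47, 6.51, 6.55 and 7.21 in MSC mice. Heart values of Serpina3f were 5.29, 5.41, 6.14, 6.16 and 7.81 in sham, 7.46, 10.43, 10.70, 11.58 and 11.60 in CLP and 7.40, 7.54, 7.94, 8.02 and 8.98 in MSC mice. CLP kidneys split into 4 high values and that of mouse 107C, 5.87, which met the highest sham kidney at 5.86, and in the heart 107C fell below the highest sham heart.

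Adamts4, which cleaves the proteoglycan aggrecan, had a mean difference of 3.15, and its organs lay close together, from 2.42 in lung to 3.59 in liver. Spleen values of Adamts4 were 5.04, 5.26, 5.45 and 5.65 in sham, 6.45, 7.07, 9.70 and 11.03 in CLP and 6.57, 6.90, 9.23 and 11.04 in MSC mice. Liver values of Adamts4 were 4.58, 4.66, 4.70, 4.79 and 5.35 in sham, 5.11, 7.48, 8.29, 8.29 and 9.22 in CLP and 4.90, 5.42, 5.48, 6.20 and 6.22 in MSC mice. Lung values of Adamts4 were 4.63, 4.93, 4.97, 5.09 and 5.17 in sham, 5.29, 6.30, 7.39, 8.85 and 9.22 in CLP and 5.61, 5.68, 6.20, 6.42 and 6.82 in MSC mice. In the liver, CLP mouse 107C lay inside the sham range, and the MSC livers lay between the sham livers and the other CLP livers, with some overlap with sham. Kidney values of Adamts4 were 4.38, 5.03, 5.05, 5.10 and 5.40 in sham, 5.77, 8.0, 8.50, 8.65 and 8.91 in CLP and 5.75, 6.19, 6.23, 6.37 and 7.17 in MSC mice. Heart values of Adamts4 were 4.55, 4.64, 4.68, 5.10 and 5.85 in sham, 6.21, 7.88, 7.93, 8.83 and 9.10 in CLP and 6.01, 6.22, 6.41, 6.68 and 7.58 in MSC mice. In kidney and heart every CLP and MSC value was above every sham value. Its relatives Adamts1 and Adamts9 differed by 1.25 to 2.62 and 1.09 to 2.71 over the organs. Mmp3, the matrix protease stromelysin, differed most in the spleen (4.78) and heart (3.41) and by 1.79 to 2.02 elsewhere, and Col4a1, a basement membrane collagen, most in the liver (2.53). Cp, which encodes the copper-carrying ferroxidase ceruloplasmin, differed by 3.02 in the spleen and by 1.27 to 1.79 elsewhere.

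Ngp, a protein of neutrophil granules, varied most between organs, from 1.67 in the spleen to 5.81 in the lung. Lung values of Ngp were 6.07, 6.29, 6.34, 6.54 and 7.06 in sham, 11.52, 11.73, 12.15, 12.30 and 12.43 in CLP and 11.94, 12.53, 12.58, 13.55 and 13.71 in MSC mice. The sham lungs and the lungs of both injured arms were more than 4 log2 units apart, and mouse 107C, low for most members, stood among the other CLP lungs here at 12.15. Liver values of Ngp were 5.28, 5.30, 5.67, 5.86 and 6.09 in sham, 7.64, 8.32, 8.74, 8.93 and 9.69 in CLP and 7.31, 7.71, 8.07, 8.19 and 8.41 in MSC mice. Kidney values of Ngp were 5.01, 5.02, 5.20, 5.24 and 5.25 in sham, 6.65, 6.92, 7.46, 7.59 and 7.91 in CLP and 6.12, 6.88, 6.91, 6.94 and 7.25 in MSC mice. In liver and kidney the arms of injured mice overlapped each other and were clear of sham. Spleen values of Ngp were 8.40, 8.81, 9.01 and 9.14 in sham, 9.40, 10.31, 10.85 and 11.35 in CLP and 10.20, 10.74, 11.13 and 11.62 in MSC mice. Heart values of Ngp were 5.14, 5.59, 5.62, 5.89 and 6.16 in sham, 7.74, 8.10, 8.17, 8.51 and 9.18 in CLP and 7.33, 7.93, 8.02, 8.55 and 8.80 in MSC mice. In heart and spleen too, sham values lay below both injured arms, which overlapped each other. A list of other neutrophil markers, 14 probes of 8 genes without Ngp, was averaged in each array on the second table's scale. Its sham, CLP and MSC medians were 6.49, 7.37 and 7.39 in liver, 6.19, 6.92 and 6.82 in kidney, and 6.77, 7.47 and 7.45 in heart, with every CLP array above every sham array. In the lung they were 8.64, 8.99 and 9.19, and CLP lungs (8.70 to 9.27) overlapped sham lungs (8.18 to 8.89). The list was uneven: in the lung the median of Camp, another granule protein, was 7.43 in sham and 11.42 in CLP mice, and that of S100a8 15.71 and 16.31. By median, 8 of the 14 probes were higher in CLP in lung and in kidney, 10 in liver and 11 in heart. In the spleen, where 8 probes of 4 genes were read from the main table, CLP arrays (6.67 to 7.54) overlapped sham arrays (6.80 to 7.07). Of these 8 probes, 3 were higher in CLP by median. Lymphocyte markers were lower after injury in lung, with medians of 9.07 in sham, 8.08 in CLP and 7.98 in MSC mice, and in spleen, with 9.03, 7.92 and 8.00. In whole organs more cells of a type and more of this RNA per cell cannot be told apart, and the part of neutrophils and lymphocytes in the members' differences was not tested.

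Among receptors and membrane proteins, Fpr2, a formyl peptide receptor of phagocytes, had a mean difference of 3.55. Spleen values of Fpr2 were 10.10, 10.13, 10.17 and 10.73 in sham, 12.94, 13.10, 13.45 and 13.83 in CLP and 12.97, 13.04, 13.25 and 13.89 in MSC mice. Liver values of Fpr2 were 8.23, 8.29, 8.32, 8.49 and 8.90 in sham, 9.54, 11.37, 11.40, 11.45 and 11.69 in CLP and 9.87, 10.26, 10.50, 10.58 and 10.65 in MSC mice. Lung values of Fpr2 were 11.04, 11.12, 11.42, 11.44 and 11.55 in sham, 12.77, 13.31, 13.46, 13.54 and 13.59 in CLP and 12.63, 12.67, 13.08, 13.46 and 13.63 in MSC mice. In all 3 organs sham values were clear of both injured arms, which overlapped each other. In the liver they overlapped only through CLP mouse 107C, at 9.54, and the other 4 CLP livers exceeded every MSC liver. Kidney values of Fpr2 were 5.08, 5.86, 5.88, 5.94 and 6.04 in sham, 10.03, 10.52, 10.53, 10.56 and 11.54 in CLP and 9.47, 10.10, 10.72, 10.72 and 10.73 in MSC mice. Heart values of Fpr2 were 6.06, 6.08, 6.87, 7.30 and 8.17 in sham, 11.38, 11.67, 11.74, 12.14 and 12.25 in CLP and 11.39, 11.45, 11.66, 11.89 and 12.04 in MSC mice. Kidney and heart, with the lowest sham levels of Fpr2 among the 4 organs normalised together, had the largest differences, 4.65 and 4.87, and their CLP and MSC values overlapped. Fpr2 levels spanned 5.53 units between sham medians of the 4 organs and 2.93 units between CLP medians.

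Slc10a6, a transporter of sulfated steroids, was represented by 2 probes that ranked the organs alike, with differences of 3.98 and 3.76 in the heart and 1.05 and 0.93 in the lung. Osmr, the receptor subunit for oncostatin M, differed by 1.41 to 2.05, and Il20rb, a subunit of receptors of the interleukin-20 family, by 1.30 to 2.81. Cd200, a surface protein that restrains myeloid cells, differed by 0.81 in the lung, where its sham median of 12.50 was the highest of the 4 organs, and by 1.92 in the kidney. Mrap, an accessory protein of the corticotropin receptor, differed by 2.81 in the liver and by 0.93 to 1.80 elsewhere, and Kcne4, a potassium channel subunit, by 1.37 to 2.51, with overlap of CLP and sham arrays in every organ.

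Among signalling genes, Socs3, the feedback inhibitor of STAT3 whose promoter is given above, differed most in kidney (4.53) and spleen (4.15) and least in liver (1.16). Spleen values of Socs3 were 9.34, 9.49, 9.54 and 9.58 in sham, 12.26, 13.40, 13.93 and 14.44 in CLP and 12.28, 12.37, 13.43 and 14.64 in MSC mice. Liver values of Socs3 were 10.02, 10.15, 10.53, 10.67 and 11.32 in sham, 11.32, 11.60, 11.70, 11.97 and 12.03 in CLP and 11.23, 11.25, 11.44, 11.56 and 11.57 in MSC mice. Lung values of Socs3 were 9.27, 9.53, 9.88, 10.08 and 10.15 in sham, 10.70, 11.55, 12.49, 13.09 and 13.56 in CLP and 10.73, 10.97, 11.20, 11.45 and 11.47 in MSC mice. The liver had the highest sham level, and the arms nearly met there, the highest sham value being 11.32 and the lowest CLP value also 11.32. Kidney values of Socs3 were 6.43, 6.47, 6.96, 7.19 and 7.47 in sham, 8.60, 10.89, 11.49, 11.72 and 12.02 in CLP and 8.97, 8.97, 9.19, 9.32 and 10.53 in MSC mice. Heart values of Socs3 were 7.59, 7.81, 8.06, 8.35 and 9.71 in sham, 10.48, 11.51, 11.74, 11.98 and 12.30 in CLP and 9.98, 10.18, 10.19, 10.62 and 11.06 in MSC mice. Sham medians of Socs3 spanned 3.57 units between the 4 organs and CLP medians 1.01 units. Stat3 itself differed by 1.03 to 2.56, also most in the kidney, where its sham median of 7.54 was the lowest, and CLP medians of the 4 organs lay within 0.28 units of one another.

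Sphk1, the kinase that makes sphingosine-1-phosphate, had a mean difference of 3.09, with 4.34 in the heart and 1.47 in the spleen. Spleen values of Sphk1 were 9.38, 10.56, 10.75 and 11.21 in sham, 11.41, 11.61, 12.64 and 12.84 in CLP and 11.35, 11.44, 12.40 and 12.77 in MSC mice. Liver values of Sphk1 were 5.94, 6.0, 6.22, 6.67 and 6.81 in sham, 7.0, 9.30, 9.48, 9.57 and 9.85 in CLP and 6.08, 6.75, 7.23, 7.76 and 7.99 in MSC mice. Lung values of Sphk1 were 10.65, 10.73, 10.93, 11.05 and 11.37 in sham, 11.82, 13.03, 13.09, 13.47 and 13.55 in CLP and 11.55, 11.90, 12.10, 12.16 and 12.46 in MSC mice. CLP and sham arrays were apart in these 3 organs, in the liver by only 0.19 units because of mouse 107C. Kidney values of Sphk1 were 8.26, 8.38, 8.43, 8.52 and 8.80 in sham, 9.10, 11.73, 12.66, 12.66 and 12.82 in CLP and 9.45, 9.56, 9.92, 10.42 and 11.64 in MSC mice. Heart values of Sphk1 were 7.01, 7.15, 7.19, 7.80 and 8.56 in sham, 8.84, 11.18, 11.53, 11.77 and 11.90 in CLP and 8.61, 9.59, 9.72, 9.79 and 9.83 in MSC mice. In kidney and heart all MSC values lay above the sham values and below the 4 higher CLP values. The other 2 probes annotated to Sphk1 differed by 0.62 or less in each of the 4 organs, at CLP medians of 5.39 to 6.24.

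Adaptors, kinases and inhibitors of the NF-kB branch had differences of under 3 units in every organ. Myd88, the adaptor of most Toll-like receptors, differed by 0.81 to 1.66, and all CLP arrays exceeded all sham arrays in all 5 organs. Nfkbia and Nfkbib, which encode inhibitors that hold NF-kB in the cytoplasm, differed by 1.03 to 1.51 and by 1.43 to 2.08. Nfkbia had one of the narrowest ranges over the organs, 0.48, together with Egr1 (0.19), Tnfaip2 (0.49), Mtdh (0.49) and Map3k6 (0.55). Map3k6 and Map3k8, both kinases that act upstream of MAP kinases, differed by 2.06 to 2.61 and 1.27 to 2.60, with arms apart in every organ. Birc2, a ubiquitin ligase of tumour necrosis factor signalling, differed by 0.80 to 1.55, Tnfaip2, a gene induced by that cytokine, by 0.92 to 1.40, and Litaf, induced by lipopolysaccharide, by 0.99 to 2.68. Gna13, a G protein subunit, differed by 1.77 to 2.80, Mtor, the growth kinase, by 1.81 to 2.60 and the 2 probes of Csnk1d, a kinase that acts on the circadian clock, by 0.86 to 2.04.

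Among nuclear regulators, Cdkn1a, the cell cycle inhibitor p21, had a mean difference of 3.12. Spleen values of Cdkn1a were 6.65, 6.71, 7.19 and 7.19 in sham, 7.66, 8.42, 10.41 and 10.71 in CLP and 8.13, 8.27, 9.60 and 10.45 in MSC mice. Liver values of Cdkn1a were 5.94, 6.21, 6.27, 6.51 and 6.72 in sham, 8.56, 10.24, 10.37, 10.40 and 10.66 in CLP and 8.75, 8.86, 9.65, 9.99 and 10.14 in MSC mice. Lung values of Cdkn1a were 7.96, 8.09, 8.13, 8.48 and 8.93 in sham, 9.73, 10.51, 10.52, 10.73 and 11.49 in CLP and 9.41, 9.52, 10.33, 10.63 and 10.82 in MSC mice. No CLP or MSC value of Cdkn1a overlapped the sham values in these organs. Kidney values of Cdkn1a were 6.05, 6.41, 6.51, 6.65 and 6.66 in sham, 7.01, 10.07, 10.47, 10.66 and 11.30 in CLP and 7.89, 8.14, 8.33, 9.24 and 9.80 in MSC mice. Heart values of Cdkn1a were 7.01, 7.19, 7.45, 7.72 and 8.34 in sham, 8.98, 10.04, 10.14, 10.42 and 11.10 in CLP and 8.41, 9.10, 9.61, 9.72 and 9.88 in MSC mice. In kidney and heart the sham values were also the lowest, and among CLP mice 107C lay nearest to them. CLP medians of Cdkn1a in the 4 organs lay within 0.38 units, against 1.87 units for sham medians. Cebpb, a transcription factor of the acute phase response, differed by 3.17 in the kidney and by 0.91 in the liver, where sham livers already stood at a median of 12.67, and its CLP medians spanned 0.96 units against 2.96 in sham. Mbd1, which binds methylated DNA, differed by 1.23 to 2.60, and Taf1d, a factor of ribosomal RNA transcription, by 0.99 to 2.08.

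Egr1, an immediate early transcription factor, had the smallest mean difference of the set, 1.07, and the most even one. Spleen values of Egr1 were 10.84, 10.96, 11.10 and 11.12 in sham, 11.24, 11.61, 12.54 and 13.78 in CLP and 11.27, 11.46, 11.80 and 12.56 in MSC mice. Liver values of Egr1 were 9.89, 10.17, 10.60, 10.63 and 12.68 in sham, 10.33, 11.35, 11.74, 12.22 and 12.26 in CLP and 10.68, 10.86, 11.49, 11.62 and 11.96 in MSC mice. Lung values of Egr1 were 9.92, 10.86, 11.15, 11.39 and 12.07 in sham, 10.02, 11.29, 12.11, 12.17 and 12.25 in CLP and 10.84, 11.50, 11.83, 12.15 and 13.12 in MSC mice. Sham and CLP values overlapped in liver and lung, where sham liver 22S, at 12.68, was the highest liver array of all. Kidney values of Egr1 were 10.09, 10.49, 10.98, 11.20 and 11.59 in sham, 8.61, 11.98, 12.09, 12.29 and 12.65 in CLP and 9.54, 10.19, 10.81, 10.82 and 12.31 in MSC mice. Heart values of Egr1 were 10.53, 10.74, 11.29, 11.42 and 12.34 in sham, 10.98, 11.71, 12.39, 12.51 and 12.62 in CLP and 10.61, 11.43, 12.02, 12.21 and 12.91 in MSC mice. Here too the arms overlapped, and the kidney of CLP mouse 107C was the lowest kidney of the 3 arms.

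Among metabolic genes, Pdk4, a kinase that slows the conversion of pyruvate to acetyl-CoA, had a mean difference of 3.35. Spleen values of Pdk4 were 7.22, 7.27, 7.28 and 7.87 in sham, 8.83, 9.16, 10.04 and 10.83 in CLP and 8.92, 9.15, 9.58 and 10.48 in MSC mice. Liver values of Pdk4 were 7.60, 7.94, 8.34, 8.98 and 9.08 in sham, 9.33, 12.93, 13.27, 13.28 and 14.20 in CLP and 9.78, 10.55, 11.53, 11.94 and 12.59 in MSC mice. Lung values of Pdk4 were 7.14, 7.28, 7.51, 7.97 and 8.21 in sham, 9.63, 9.92, 10.04, 10.43 and 11.30 in CLP and 9.80, 10.21, 10.40, 10.44 and 10.53 in MSC mice. Sham values were the lowest throughout these 3 organs, and MSC values lay among the CLP values in spleen and lung. Kidney values of Pdk4 were 8.52, 8.97, 9.83, 9.85 and 10.36 in sham, 11.31, 13.88, 13.97, 14.01 and 14.58 in CLP and 12.02, 12.67, 12.76, 13.25 and 13.87 in MSC mice. Heart values of Pdk4 were 11.47, 11.69, 11.70, 12.29 and 13.86 in sham, 13.73, 14.22, 14.52, 14.74 and 15.08 in CLP and 14.14, 14.32, 14.40, 14.49 and 14.58 in MSC mice. Hearts had the highest sham level of Pdk4 among the 4 organs, and sham heart 22S, at 13.86, exceeded the heart of CLP mouse 107C. Plin2, a coat protein of lipid droplets, differed by 4.14 in the kidney and by 1.47 to 2.58 elsewhere, and Arrdc4, a glucose-responsive arrestin-like gene, by 4.34 in the liver and 0.94 in the lung. Srxn1, which repairs oxidised peroxiredoxins, had its largest difference in kidney (2.85) and its smallest in heart (0.84), and the 2 probes of Ctps, an enzyme of CTP synthesis, differed by 2.83 and 2.93 in the liver and by 0.97 to 1.94 elsewhere. Atp5k, a subunit of ATP synthase, differed by 1.47 to 2.96 and Car13, a carbonic anhydrase, by 0.83 to 2.09.

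Of the remaining members, Erdr1 had the smallest mean difference after Egr1, 1.12, and CLP and sham arrays overlapped in every organ. Spleen values of Erdr1 were 9.13, 9.62, 9.92 and 10.54 in sham, 10.20, 10.35, 11.11 and 11.42 in CLP and 9.64, 10.23, 10.25 and 10.31 in MSC mice. Liver values of Erdr1 were 5.74, 5.93, 5.96, 6.20 and 7.54 in sham, 7.07, 7.18, 7.55, 8.24 and 8.96 in CLP and 5.62, 5.89, 6.55, 6.65 and 7.29 in MSC mice. Lung values of Erdr1 were 6.47, 6.66, 6.75, 7.04 and 7.95 in sham, 7.03, 7.66, 7.75, 7.92 and 8.81 in CLP and 6.62, 6.72, 6.74, 6.95 and 7.35 in MSC mice. MSC values of Erdr1 lay within or close to the sham range in all 3 organs. Kidney values of Erdr1 were 5.80, 5.92, 6.11, 6.18 and 6.80 in sham, 6.52, 6.73, 7.13, 7.49 and 8.04 in CLP and 5.75, 6.05, 6.59, 6.68 and 6.72 in MSC mice. Heart values of Erdr1 were 6.34, 6.37, 7.01, 8.33 and 8.57 in sham, 7.33, 7.89, 8.03, 8.07 and 9.08 in CLP and 6.13, 6.66, 6.72, 6.90 and 7.39 in MSC mice. The highest sham hearts, 78S and 21S, exceeded most CLP hearts. Wdr92 differed by 1.73 to 3.85, Snhg16, a non-coding host of small nucleolar RNAs, by 0.89 to 1.61, Naa25, a subunit of an N-terminal acetyltransferase, by 0.85 to 1.71, and Nepro, Chic2, Mapk1ip1l, Zswim4, Tatdn2 and Mtdh by 0.88 to 2.0. The probe without a symbol ILMN_1246770 stood between 15.82 and 15.96 in the CLP medians of the 4 organs, close to the highest value in the table, so that its differences of 1.05 to 3.04 there are bounded from above.

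**Figure D2:**
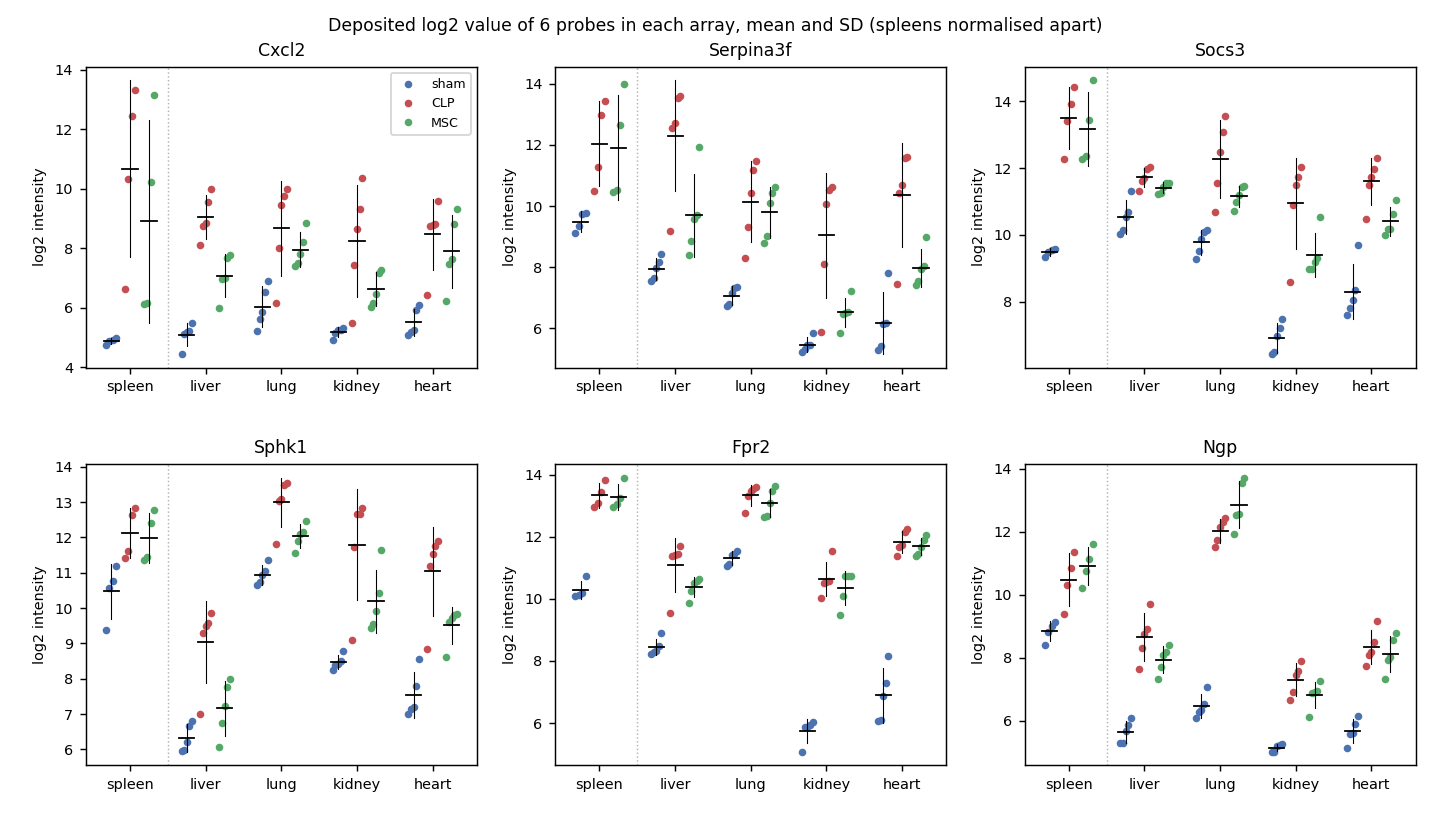
Deposited log2 value of 6 members (panels) in each array, by organ and arm; points are arrays, black bars the mean and 1 SD, and spleens, left of the dotted line, were normalised apart. For Cxcl2, Serpina3f, Socs3 and Sphk1 several MSC groups lie between sham and CLP, whereas MSC values of Fpr2 and Ngp overlap the CLP values in most organs, with lung Ngp at 11.94 to 13.71 in MSC and 11.52 to 12.43 in CLP mice.

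Membership was a matter of small amounts at each threshold. Just inside the limit on the difference were Birc2 (0.80), Cd200 (0.81) and Myd88 (0.81), and just outside it were Egfr (0.79) and 2 probes of Smad1 (0.79 and 0.80, both under 0.8 before rounding). Just inside the limit on the level were Mrap (7.05), Kcne4 (7.07) and Erdr1 (7.13), and just outside it Sema6b (6.93), ILMN_2945607 (6.89) and ILMN_2717117 (6.87). For the gap between sham medians, the nearest members were Erdr1 (2.76) and Ngp (2.57), and ILMN_2725927 (3.48) was excluded. The gaps of Erdr1 and Ngp set the spleen against an organ normalised apart from it. Leaving out 1 spleen, or 1 numbered sham or CLP mouse with its 4 organs, gave sets of 44 to 75 probes, the smallest without CLP mouse 24C or 35C and the largest without 107C.

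Other probes of the same genes were read through the second table in liver, lung, kidney and heart, in the same mice and the same contrast, and are given without a test. There were 66 of them for 34 member genes, of which 27 had been judged and were outside the set because they failed the rule or were left out by name, so only the other 39 probes, of 25 genes, had no part in the choice. Of these 39 probes, 30 were higher in CLP than in sham by median in all 4 organs, 9 probes of 8 genes by 0.8 or more, and 18 stayed under 0.8 in each organ. Agreement was close for Stat3, whose 2 other probes differed by 0.90 to 2.70, for Map3k6 (1.84 to 2.28), for Myd88 (1.05 to 1.52) and for Cdkn1a, with 2.68 in the lung to 5.14 in the liver at a probe that the rule had not judged. Other probes of Wdr92 and Litaf, likewise not judged, did not share the difference: it ran from -0.30 to 0.06 for Wdr92, at CLP medians of 7.01 to 7.67, and from -0.33 to 0.09 for Litaf, whose probe was dim. The other probes of Atp5k (-0.32 to 0.01) and Mtor (-0.20 to 0.30) had been judged and had failed the rule. One of the Mtor probes was not dim, with CLP medians of 7.88 to 9.43 and differences of -0.20 to 0.09, so probes annotated to Mtor disagree, and the same holds for Wdr92. Probes of Cd200 disagree as well. Its 2 other probes differed by -0.28 to 0.55 in the 4 organs, against 0.81 to 1.92 at the member. For 1 of them, a judged probe, CLP medians were 8.10 to 9.73 in lung, kidney and heart and 6.12 in the liver. The values of these members are those of 1 probe and not of every transcript of the gene. Another Nfkbia probe, also judged, differed by 0.23 to 0.58, less than the member's 1.03 to 1.51. The plot of member and other probes shows both kinds of gene.

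**Figure D3:**
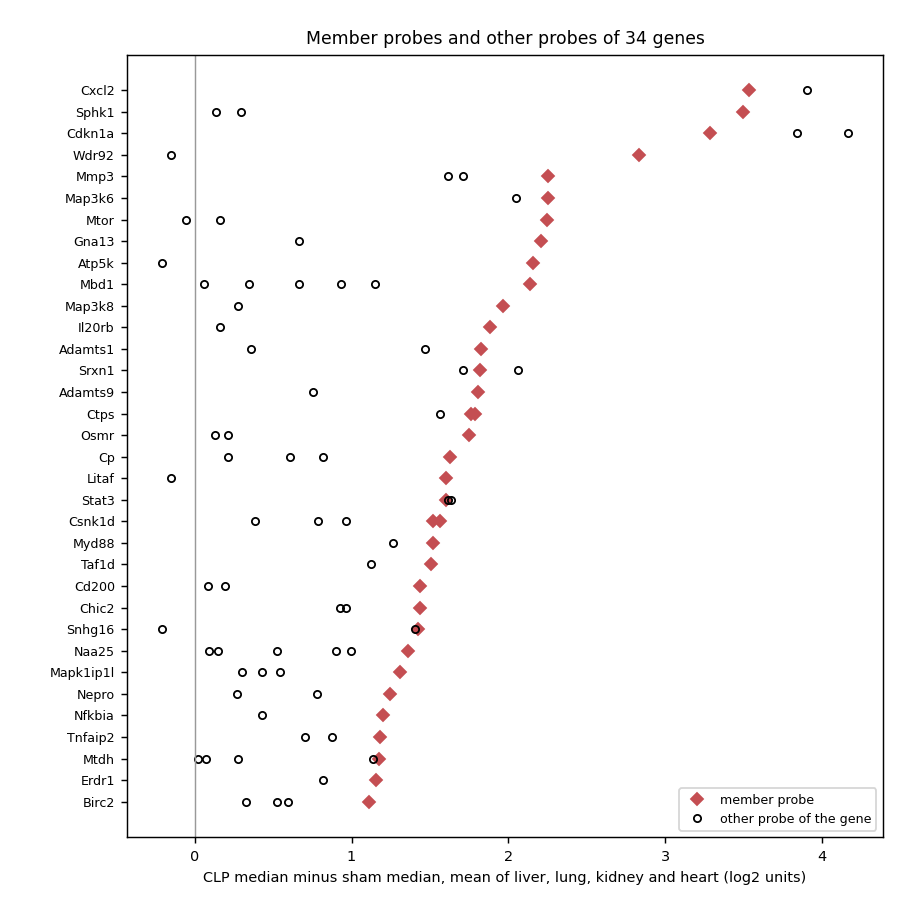
CLP median minus sham median, averaged over liver, lung, kidney and heart (horizontal axis, log2 units), for member probes (red diamonds) and other probes (open circles) of 34 genes. Other probes of Cxcl2, Cdkn1a, Map3k6, Stat3 and Myd88 lie near or beyond the member, and those of Sphk1, Wdr92, Mtor and Atp5k lie near 0.

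The same arrays were low for nearly all members. CLP mouse 107C was the lowest CLP array for 51 of the 58 members in liver, 52 in lung, 54 in kidney and 54 in heart, and the CLP spleen labelled B, from a mouse that the labels do not tie to these, was the lowest for 50. Taken over the members, the median excess over the sham median was 0.78, 0.39, 0.48 and 0.59 in the 4 organs of mouse 107C, and between 0.96 and 2.44 in those of the other 4 CLP mice. MSC mice ranged from 0.48 to 1.37 by the same measure in these organs. In the spleen, MSC4 and MSC7 stood at 0.74 and 0.86, near CLP spleen B at 0.68, and MSC5 and MSC8 at 2.17 and 1.78, among the other CLP spleens at 1.45 to 2.47. In the deposited labels MSC4, MSC7 and B carry a letter alone, and MSC5, MSC8, CLP3 and CLP10 a letter with a number. CLP2, the highest CLP spleen at 2.47, also carries a letter alone. What these 2 label sets stand for is not given, and their part in the split was not tested. The sham heart 22S was the highest sham heart for 34 members, at 0.38. The labels give nothing that sets 107C or B apart from the other CLP samples.

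**Figure D4:**
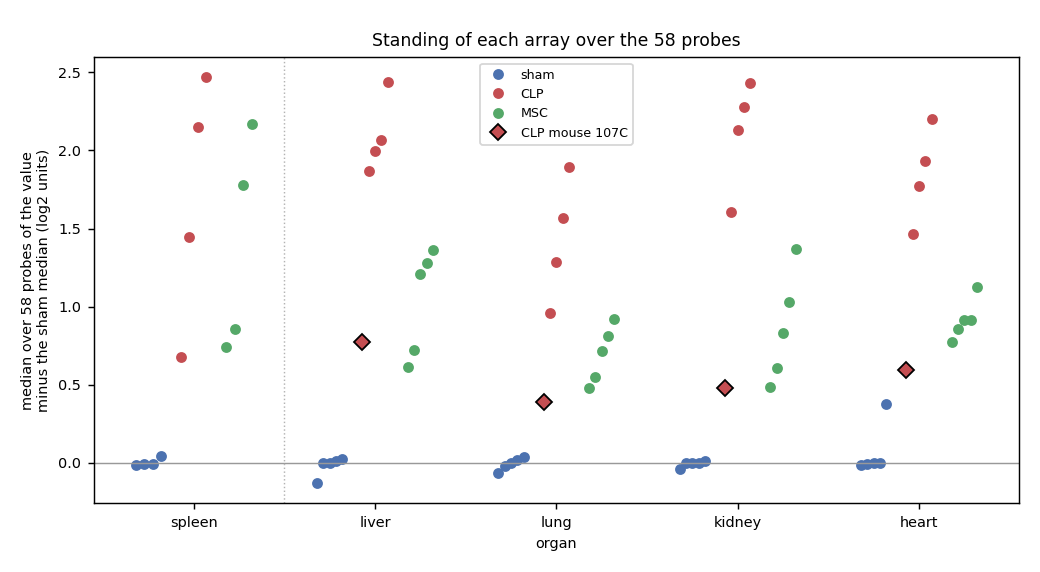
Median over the 58 probes of an array's value minus the sham median (vertical axis, log2 units), by organ and arm; each point is 1 array, diamonds mark CLP mouse 107C, and the dotted line sets off the separately normalised spleens. Mouse 107C lies at 0.39 to 0.78, below the other CLP mice in each organ and within or just under the MSC range.

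Other probes of the same pathways, on 7 lists that hold members, and 6 lists without members were tested across all probes of an organ with limma (Benjamini-Hochberg adjusted p below 0.05). Of all probes in spleen, liver, lung, kidney and heart, higher calls made up 7.22%, 24%, 15.9%, 20.4% and 8.42%, and lower calls 6.28%, 19.9%, 16.5%, 20.7% and 9.04%. Of NF-kB and immediate early regulators other than members, 4 of 15 probes rose in the spleen, 5 of 13 in liver, 7 of 13 in lung, 9 of 11 in kidney and 8 of 12 in heart, and 1 fell, in the liver. Their median differences were 0.90, 0.32, 0.45, 1.19 and 0.72 in these organs, against medians over all probes of -0.03 to 0.07. Relb, an NF-kB subunit, rose in the liver by 2.06 (SE 0.36, adjusted p 0.000373), lung, kidney and heart, and the 0.46 difference in the spleen did not pass. Of JAK-STAT and cytokine receptor probes, 6 of 20 rose in the spleen, 8 of 21 in liver, 9 of 16 in lung, 8 of 12 in kidney and 8 of 15 in heart, and 5 fell in the liver and 1 in the lung. Il1r2, the decoy receptor for interleukin-1, rose in all 5 organs, by 1.39 in the kidney to 3.94 in the spleen, and Il1rn, the receptor antagonist, rose in all 5 at 2 probes. Of acute phase and defence proteins, 5 of 9, 5 of 15, 6 of 11, 5 of 11 and 8 of 11 probes rose in spleen, liver, lung, kidney and heart, and of neutrophil granule genes 5 of 13, 9 of 9, 6 of 12, 7 of 9 and 7 of 9, with 1 fall in the kidney. Of glucocorticoid and circadian targets, 5 of 15, 2 of 13, 4 of 14, 5 of 13 and 3 of 14 rose, with 4 falls in the liver and 1 in the kidney, and Fkbp5, a chaperone gene raised by glucocorticoids, rose in all 5 organs by 0.59 to 2.56. Chemokines and cytokines outside the set rose at 4 of 9, 3 of 5, 3 of 6, 2 of 4 and 1 of 5 probes, with 1 fall in the liver. Interferon-induced genes, a list without members, rose at 3 of 16 probes in the kidney and at 0 of 18, 16, 17 and 17 in spleen, liver, lung and heart, and fell at 1, 5, 1, 1 and 0 in spleen, liver, lung, kidney and heart. Metal and oxidative stress genes form the list of Srxn1, and 3 of their 5 probes rose in kidney, 2 of 5 in liver, 2 of 3 in lung, 1 of 3 in heart and 0 of 7 in spleen. Among the other lists without members, complement genes rose at 4 of 9 probes in spleen and 2 of 9 in lung and fell at 7 of 9 in liver, and protein folding genes rose at 9 of 11 in liver and 2 of 12 in kidney and fell at 1 to 2 in spleen, liver, lung and kidney. In the order spleen, liver, lung, kidney, heart, monocyte and macrophage genes rose at 5 of 19, 2 of 10, 4 of 13, 2 of 7 and 3 of 12 probes and fell at 0, 4, 3, 0 and 1, and endothelial genes rose at 3 of 20, 5 of 11, 3 of 14, 5 of 10 and 5 of 12 and fell at 0, 1, 2, 2 and 0. Cell cycle genes rose at 1 probe each in liver, lung and heart and fell at 1 each in liver and kidney, of 5 to 12 per organ. These lists include probes left out of the set by name, such as Saa3 and Cxcl1. Only member probes were set apart, so further probes of a member gene were counted with its list.

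MSC arrays had no part in the choice of members, and they were compared with CLP arrays in each organ with limma, all 3 arms fitted together. The CLP arrays did choose the members, and a choice by high CLP values by itself favours lower values in any other arm. Estimates of MSC minus CLP were negative for all 58 members in liver, kidney and heart, for 54 in the lung and for 50 in the spleen, with medians of -0.79, -0.87, -0.69, -0.55 and -0.20, whereas the medians over all probes tested lay between -0.02 and 0.02. In the liver 10 of 58 members (17.2%) passed as lower, against 2.93% of all probes. In spleen, lung and heart 0 members passed as lower, against 0% of all probes in each, and in kidney 0, against 0.0227%. At an unadjusted p below 0.05 the numbers were 0 in spleen (3.87% of all probes in either direction), 36 in lung (26%), 39 in kidney (27.1%) and 38 in heart (17.4%). Counted in either direction, the liver number fell to 0 when any 1 array other than that of CLP mouse 107C was left out. It rose to 43 without 107C, which also raised lung to 40, kidney to 51 and heart to 37. Shares over all probes were not taken in the fits that left out an array. These counts are therefore not read as a property of the members. All MSC arrays lay below all CLP arrays for 3 members in the liver (1.82% of all probes), 2 in the kidney (0.885%) and none in spleen (0.932%), lung (1.26%) or heart (1.63%).

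The 10 members lower in MSC livers were Cxcl2, Arrdc4, Serpina3f, Adamts4, Sphk1, Adamts9, Snhg16, Nepro, Tatdn2 and Myd88. Cxcl2 was at 9.06 ± 0.74 (SD, n = 5) in CLP and 7.08 ± 0.72 in MSC livers, a difference of -1.98 (SE 0.36, limma adjusted p 0.042). Arrdc4 differed by -2.67 (SE 0.73, limma adjusted p 0.0446) and Serpina3f by -2.61 (SE 0.72, limma adjusted p 0.0448). Myd88, with the smallest of these differences, was lower by 0.79 on the log2 scale (MSC minus CLP -0.79, SE 0.16). Adjusted p-values of the 10 lay between 0.042 and 0.0448, close to the threshold.

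When the values of liver, lung, kidney and heart were averaged within each mouse, 19 of 58 members (32.8%) were lower in MSC than in CLP mice, against 6.55% of 6826 probes tested, and 46 of 58 had an unadjusted p below 0.05, against 37.0% of all (limma, 5 mice per arm). The 19 comprised secreted and matrix genes (Serpina3f, Adamts4, Adamts9), signalling genes (Sphk1, Gna13, Socs3, Nfkbib, Map3k8, Myd88, Tnfaip2, Litaf), and Arrdc4, Car13, Kcne4, Erdr1, Snhg16, Nepro, Tatdn2 and ILMN_2730054. Serpina3f had the largest difference, -1.97 (SE 0.57, limma adjusted p 0.0419), followed by Adamts4 at -1.58 (SE 0.45, adjusted p 0.0412) and Sphk1 at -1.49 (SE 0.42, adjusted p 0.0409). Myd88 (-0.67, SE 0.14) and Tatdn2 (-0.78, SE 0.19) had small differences with small errors and shared the lowest adjusted p among members, 0.0395, with ILMN_2730054 (-1.47, SE 0.29). Socs3 was lower by 1.04 on the log2 scale (MSC minus CLP -1.04, SE 0.32, adjusted p 0.0454), Nfkbib differed by -0.99 (SE 0.26) and Map3k8 by -0.70 (SE 0.20). Cxcl2, at -1.22 (SE 0.46, adjusted p 0.0732), did not pass, nor did Nfkbia at -0.38 (SE 0.23, adjusted p 0.237). This count rested on few mice too: leaving out CLP mouse 107C gave 55, MSC mouse 16M gave 31, sham mouse 78S gave 17, and any 1 of the other 12 mice gave 0. With the mouse as a random replicate block over the 4 organs in place of the average, 46 members passed. No share over all probes was taken in that fit or in those without 1 mouse, so these counts describe the members alone.

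**Figure D5:**
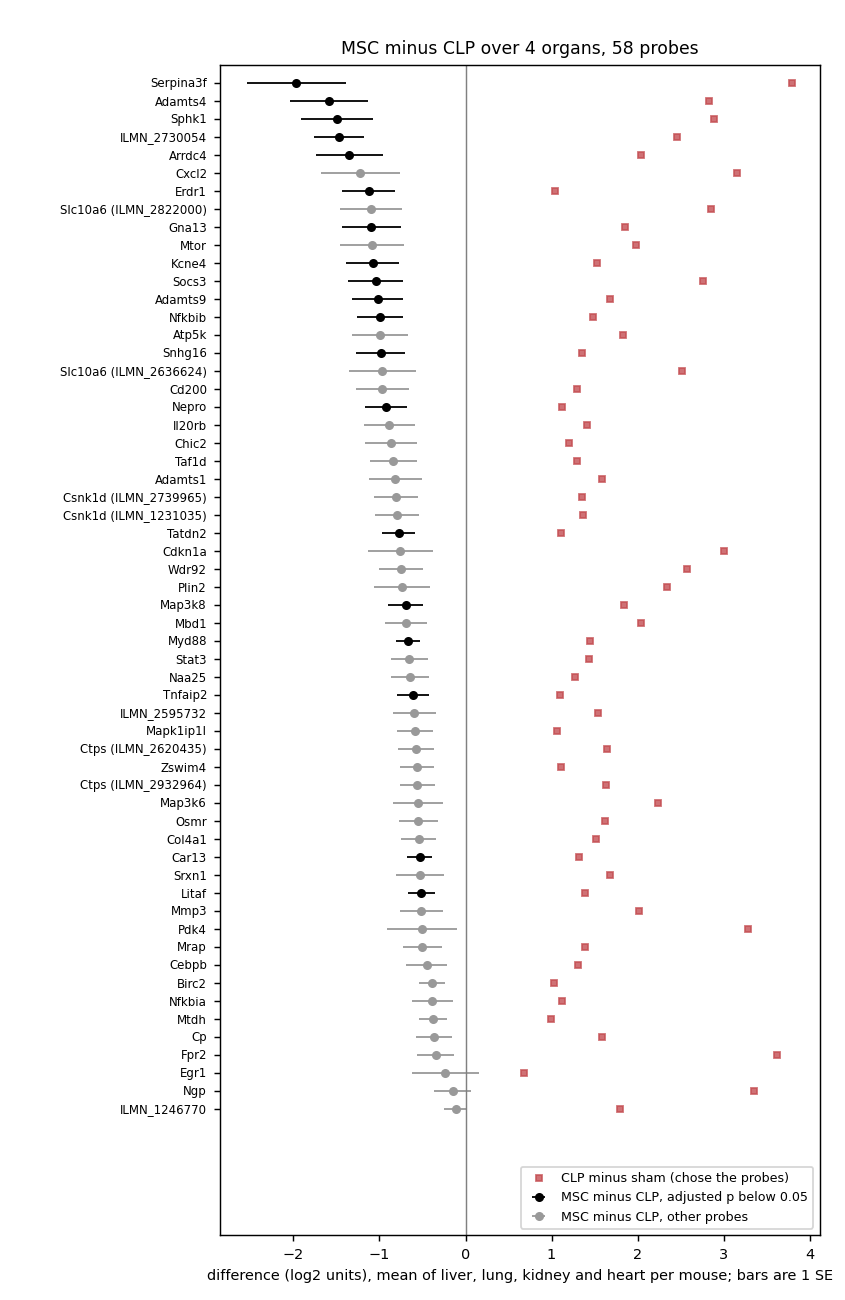
MSC minus CLP (circles, with 1 SE) in the mean of 4 organs per mouse (heart, kidney, lung and liver) for the 58 probes, ordered by size, with CLP minus sham (red squares), which chose the probes, beside it; the horizontal axis is in log2 units and black marks the 19 probes past the threshold. The circles run from -1.97 for Serpina3f to -0.11 for ILMN_1246770, and all lie below 0.

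Against sham mice, whose arrays also took part in the choice, 29 members stayed higher in MSC livers (11.2% of all probes higher), 27 in the spleen (3.85%), 25 in the lung (4.2%), 22 in the heart (1.87%), 18 in the kidney (3.28%) and 33 in the mean of 4 organs (7.05%). Counted in either direction, the spleen number was 7 without s2 and MSC8 and 0 with the arms as the second table gives them, so the spleen comparison depends on which labels hold. Lymphocyte markers averaged 9.03 in s2, against 9.01 to 9.11 in the other sham spleens. They averaged 7.83 in MSC8, against 7.40 to 8.56 in CLP and 7.70 to 8.48 in the other MSC spleens. On these markers s2 stood with the sham and MSC8 with the injured spleens, as the main table labels them. Which labels hold was not tested. Ngp, Fpr2, Pdk4, Socs3, 1 of the 2 probes of Slc10a6, Map3k6, Mbd1 and ILMN_1246770 were higher in MSC than in sham mice in all 5 organs, and 16 members in none. The share of all probes called in every organ or in none was not taken, so nothing is read from these counts about the set. Nor was such a share taken for the spleen alternatives. Averaged over the 4 organs, the part of the CLP-minus-sham difference that MSC mice still showed had a median of 60.25% over members, was 75% or more for 6 and under 50% for 26. It was 95.6% for Ngp, 90.4% for Fpr2, 84.6% for Pdk4, 77.0% for Cp and 75.4% for Map3k6. The remaining 1 of the 6, ILMN_1246770, stood near the top of the scale in CLP mice, so its share cannot be read. At the other end stood Erdr1 at -8.2%, Nepro at 17.3%, Cd200 at 25.4% and Snhg16 at 26.8%. Both differences share the sham mice, and the CLP-minus-sham difference they are divided by also chose the members. These percentages are therefore descriptions without an error and not measures of what the infusion removed.

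Whether the MSC-minus-CLP difference varied between liver, lung, kidney and heart was tested with a limma F-test over 6826 probes, in which 6 of 58 members (10.3%) passed, against 11% of all probes, so that such variation was no more frequent among members than elsewhere. Serpina3f differed by -2.61 in the liver, -2.53 in the kidney and -2.38 in the heart but by -0.35 in the lung (adjusted p for the variation 0.00756). Arrdc4 differed by -2.67 in the liver against -1.21, -0.84 and -0.69 in kidney, lung and heart, and Taf1d by -1.38 in the liver against -0.85 to -0.56. Atp5k and Mtor had their lowest estimates in the lung, -1.74 and -1.55, against -0.48 and -1.18 in the liver. Ngp was 0.83 higher in MSC than in CLP lungs and 0.72 lower in livers (MSC minus CLP -0.72), neither past the threshold on its own (limma adjusted p 0.101 and 0.133). The number of such members was 29 without CLP mouse 107C and 10 without MSC mouse 16M. The share over all probes was not taken in those fits, so these numbers cannot be set against it.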

How the data were processed

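The authors deposited log2 intensities of 72 Illumina arrays, 1 value per probe and array, with no bead-level data or detection p-values, so precision rests on the number of arrays alone. The sources used here do not give the processing tools or their versions; per the labels' protocols, RNA was extracted with Trizol and amplified to biotinylated cRNA. The values themselves show quantile normalization within the 12 spleen and within the 60 other arrays. Of 45255 complete rows, 22751 are offset from the header by 12 columns and were not used from this table, and 71 columns were matched to a sample and 1 spleen to its group only. A second deposited table, also log2, served as an alternative and for other probes of member genes. The tissue characteristic of some samples contradicts their title, source name and description, which were followed. Gene names came from the platform annotation, updated through RefSeq GRCm38.p6, with 17370 of 22504 probes carrying 1 symbol.

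Each organ was fitted with limma 3.58.1 (R 4.3.3) over 3 arms, on probes at 6 or more in at least 5 arrays (4 in spleen), and called at a Benjamini-Hochberg adjusted p below 0.05. Values of 4 organs were also averaged per mouse, and the variation of MSC minus CLP between organs was tested with the mouse as a fixed term. Fits were tested on simulated data. Members were found with pandas 2.3.3 and numpy 2.4.6 (Python 3.11.15) and plotted with matplotlib 3.10.9. Members named with every value were the 8 with the largest mean difference and the 2 with the smallest, and Ngp, added after its values were seen; other members are given by their range. The 58 members and all gene lists were chosen with earlier results of these data known. Mouse numbers pair the 4 organs of 1 arm but no animals across arms, and spleens carry labels of their own. Alternatives changed the filter, array weights, the arms fitted, the table, the statistic of the rule, the replicate block, and left out each array in turn.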

Additional observations from a re-analysis of the deposited data

Results flagged for a closer look

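In 160 groups of 4 or 5 arrays, 150 of them single probes in 1 arm of 1 organ, the highest or lowest array was tested for a gap to its neighbour that was large against the range of its group. Such a gap was found in 21 groups. Chance alone gives about 1 in 20 groups where groups are independent. These groups share arrays, and CLP and sham values also chose the probes, so the count is not set against that rate.

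CLP mouse 107C accounted for 12 of the 21 and was the lowest of its arm in each. In the liver these were Serpina3f (9.18), Fpr2 (9.54), Pdk4 (9.33), Cdkn1a (8.56) and Sphk1 (6.996). In the kidney they were Pdk4 (11.31), Adamts4 (5.77), Cdkn1a (7.01) and Egr1 (8.61). In the heart they were Cxcl2 (6.44), Serpina3f (7.46) and Sphk1 (8.84).

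The other 9 were spread over 8 arrays. Among sham arrays, Fpr2 was high in spleen s1 (10.73) and low in kidney 77S (5.08), Pdk4 was high in spleen s4 (7.87), Adamts4 and Egr1 were high in liver 22S (5.35 and 12.68), and Erdr1 was high in liver 21S (7.54). Among MSC arrays, Socs3 was high in kidney 16M (10.53), Sphk1 was low in heart 61M (8.61) and Erdr1 was low in spleen MSC7 (9.64).

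For 6 of 58 members (10.3%) the MSC-minus-CLP difference itself varied between liver, lung, kidney and heart by limma's F-test, a share near the 11% of all probes, so this is no property of the set. Adjusted p was 0.00303 for Atp5k, 0.00578 for Ngp, 0.00756 for Serpina3f, 0.00854 for Arrdc4, 0.00874 for Mtor and 0.0435 for Taf1d.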

How the results depend on the processing

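Counts of members called in MSC against CLP mice, here in either direction, depended on the processing. Shares over all probes were not taken under the alternatives of this section. None of its counts is therefore read as a property of the set. With array weights, which give less weight to arrays that depart from their group, they were 40 in liver, 35 in lung, 45 in kidney, 24 in heart and 52 in the mean of 4 organs, against 10, 0, 0, 0 and 19. Without a filter on dim probes, or with only the compared arms in the fit, both the liver count and that of the mean were 0. Leaving out 1 array at a time gave 0 to 43 in liver, 0 to 40 in lung, 0 to 51 in kidney and 0 to 37 in heart, each highest without 107C, and 0 to 55 for the mean; kidney gave 1 without 34C and heart 4 without 78S. The spleen count was 0 in every alternative. With the mouse as a random replicate block, 46 members passed in MSC against CLP and 47 in MSC against sham, where the mean of 4 organs gave 33. The spleen label sets as a replicate block gave 0 and 30; nothing in the labels ties spleens of 1 set across arms.

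For MSC against sham, the spleen count of 27 was 0 in the second table and 13 to 34 without 1 array. The liver count ran from 24 to 39, lung from 18 to 33, kidney from 10 to 37, heart from 12 to 29 and the mean from 25 to 46 without 1 array or mouse. Only the compared arms in the fit gave 44 in lung, 41 in kidney and 51 in the mean. Array weights gave 40 in kidney, 43 in heart and 51 in the mean, and no filter gave 11 in kidney. The number of members with varying differences was 28 with array weights and 4 to 29 without 1 mouse. Probes of the gene lists called between CLP and sham numbered 53 in spleen (98 with array weights), 93 in liver, 69 in lung, 71 in kidney and 59 in heart, and 29 to 84, 81 to 101, 54 to 76, 64 to 86 and 48 to 68 without 1 array. The rule itself gave 53 probes with means (47 shared with the set), 60 after scaling to a common 75th percentile (57 shared) and 61 from the second table (56 shared).

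Alternatives chosen after seeing the data were these. Without spleens s2 and MSC8, 7 members passed in MSC against sham spleens and the rule gave 58 probes (57 shared). Without hearts 78S, 107C, 37C and 61M, 38 members passed in MSC against CLP hearts and 35 in MSC against sham hearts, in either direction. Without 107C and spleen B the rule gave 82 probes (56 shared). All complete probes of the second table gave 198, 179, 166 and 144 list probes called in liver, lung, kidney and heart. Single members were followed through the alternatives only for MSC minus CLP in the mean of 4 organs: 937 results kept direction and side of the threshold, 269 lost the call, 117 gained it and 1 turned. That was Ngp, which was -0.15 with all mice and ran from -0.28 without CLP mouse 107C to 0.018 without MSC mouse 61M. The cause of these shifts was not tested. Groups of 4 or 5 arrays limit what can be called.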
